A study of Mus musculus with 18 samples.

Results

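The 10 genes described here make or carry out the PIWI-interacting RNA (piRNA) pathway: Piwil2, Piwil4, Mov10l1, Mael, Asz1, Ddx4 and the Tudor-domain genes Tdrd1, Tdrd5, Tdrd9 and Tdrd12. They were taken from a list of names by a rule that uses no measured value, although earlier results of these data were known when the list was made, and all 10 were found among the 25239 genes of the deposited RNA-seq count table. The libraries came from the mouse embryonic stem cell (ESC) line E14Tg2a, either wild type or TKO, in which the open reading frames of Tet1, Tet2 and Tet3 had been excised. These genes encode the TET enzymes, which oxidise 5-methylcytosine in DNA. ESCs kept in 2i/LIF were turned into epiblast-like cells (EpiLCs, day 0) by exposure to Activin A and Fgf and were afterwards grown in suspension as aggregates, with or without BMP4, BMP8a, SCF, LIF and EGF. With these cytokines, wild-type cells give rise to primordial germ cell-like cells (PGCLCs). There were 9 conditions of 2 replicate libraries each, 18 in all: wild-type EpiLCs, wild-type aggregates without cytokines at day 2 and day 6, wild-type PGCLCs at day 6 with cytokines, TKO EpiLCs, and TKO aggregates without and with cytokines at day 2 and day 6. Most experiments of the study used a single TKO clone, and the labels do not name the clone sequenced. The labels call the wild-type day 6 cells with cytokines aggregates, whereas the study describes such cells as sorted for the PGC surface markers SSEA1 and CD61 and the other populations as whole aggregates. Each comparison with wild-type PGCLCs may therefore also compare sorted with unsorted cells.

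piRNAs are small RNAs of the germline that guide PIWI proteins to transposon transcripts, which are cut in the cytoplasm or silenced in the nucleus through DNA methylation. Piwil2 (MILI) and Piwil4 (MIWI2) are the PIWI proteins of fetal male germ cells, Piwil2 cytoplasmic and Piwil4 able to enter the nucleus. Mov10l1 is the RNA helicase that hands piRNA precursors to the processing machinery, and Asz1 (GASZ) anchors that machinery at mitochondria. Tdrd1, Tdrd5, Tdrd9 and Tdrd12 are Tudor-domain proteins that bind PIWI proteins and assemble the granules in which piRNAs are made and amplified, and Tdrd9 and Tdrd12 also hold helicase domains. Mael is required for transposon silencing, and Ddx4 (the mouse VASA homologue, MVH) is a germ cell RNA helicase that acts in piRNA amplification. In mice several genes of this group have CpG-rich promoters that are methylated and silent in somatic tissue, and germ cells turn them on as their genome loses DNA methylation.

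The promoters are shown because several of these genes had similar profiles over the conditions and because the palindrome CACGTG, the E-box read by MAX/MGA proteins that repress germline genes, is a known feature of such promoters. RefSeq windows (GRCm38.p6, the build called mm10) of 300 bases, from 250 before to 50 after a start site, were used for 9 of the 10 genes, all but Piwil2, in 13 windows. Piwil2 lies on chromosome 14 from 70372477 to 70429383 on the minus strand (GENCODE M21, the same build). CACGTG stood in a window of 5 genes, namely Tdrd1, Tdrd9, Mov10l1, Mael and Ddx4, and in none of the windows of Piwil4, Tdrd5, Tdrd12 and Asz1. It is held by 8.09% of the 27025 genes whose windows were searched, on both strands. Its first base lay 11 bases upstream of 1 Tdrd1 start, 29 upstream of Ddx4, 223 of Mael, 246 of Mov10l1, and 165 and 95 of Tdrd9. A second motif, TCCCGC, read by E2F6 and searched on both strands, was found for Tdrd5, Mael and Ddx4 and is held by 22.1% of genes. No window of Piwil4, Tdrd12 or Asz1 held either motif. The windows of Tdrd5 and Ddx4 held 48 and 38 CpG dinucleotides, those of Mael, Mov10l1 and Tdrd1 24, 20 and up to 25, and the upstream window of Piwil4 11, where the median of all windows is 7. A match is a description of the letters and not a binding site. In the 6 windows below, written 5′ to 3′ on the gene's strand, capitals mark CACGTG. The first 4 hold it and belong to genes called higher in TKO aggregates with cytokines at day 6 than in wild-type PGCLCs. The last 2, without it, belong to Tdrd5, called lower in that comparison, and Piwil4, called lower in TKO than in wild-type EpiLCs. These windows were picked with the calls known, and the higher calls of Mov10l1, Ddx4 and Tdrd1 depended on single libraries, as given below. Tdrd9, with CACGTG, and Tdrd12 and Asz1, without it, were not called against PGCLCs at day 6 and are not printed. Genes with and without CACGTG were both among those with similar profiles.
Mael (chr1:166238695-166238994, minus strand): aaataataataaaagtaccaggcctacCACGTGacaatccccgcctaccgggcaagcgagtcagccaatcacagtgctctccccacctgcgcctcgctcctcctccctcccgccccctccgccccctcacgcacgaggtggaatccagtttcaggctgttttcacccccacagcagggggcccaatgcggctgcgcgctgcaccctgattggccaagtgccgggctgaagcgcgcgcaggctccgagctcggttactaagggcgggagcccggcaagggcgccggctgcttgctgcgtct
Ddx4 (chr13:112652261-112652560, minus strand): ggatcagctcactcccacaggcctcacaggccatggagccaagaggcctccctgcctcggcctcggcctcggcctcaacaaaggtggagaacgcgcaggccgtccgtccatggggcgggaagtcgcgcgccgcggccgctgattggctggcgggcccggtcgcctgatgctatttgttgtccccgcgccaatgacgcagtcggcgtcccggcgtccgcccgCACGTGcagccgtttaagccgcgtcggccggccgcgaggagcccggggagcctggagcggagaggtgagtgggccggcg
Mov10l1 (chr15:88982744-88983043, plus strand): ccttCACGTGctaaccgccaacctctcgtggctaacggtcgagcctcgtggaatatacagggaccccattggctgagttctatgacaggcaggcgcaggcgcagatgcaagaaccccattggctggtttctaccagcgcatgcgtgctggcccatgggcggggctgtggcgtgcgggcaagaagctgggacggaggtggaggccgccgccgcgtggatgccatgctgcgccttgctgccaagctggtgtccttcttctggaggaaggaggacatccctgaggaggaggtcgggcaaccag
Tdrd1 (chr19:56825959-56826258, plus strand): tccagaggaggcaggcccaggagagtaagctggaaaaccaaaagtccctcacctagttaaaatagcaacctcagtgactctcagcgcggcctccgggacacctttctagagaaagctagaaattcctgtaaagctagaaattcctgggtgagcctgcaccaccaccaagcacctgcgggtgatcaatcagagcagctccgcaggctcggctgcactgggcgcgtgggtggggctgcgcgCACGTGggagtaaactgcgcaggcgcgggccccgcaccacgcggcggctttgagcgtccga
Tdrd5 (chr1:156303299-156303598, minus strand): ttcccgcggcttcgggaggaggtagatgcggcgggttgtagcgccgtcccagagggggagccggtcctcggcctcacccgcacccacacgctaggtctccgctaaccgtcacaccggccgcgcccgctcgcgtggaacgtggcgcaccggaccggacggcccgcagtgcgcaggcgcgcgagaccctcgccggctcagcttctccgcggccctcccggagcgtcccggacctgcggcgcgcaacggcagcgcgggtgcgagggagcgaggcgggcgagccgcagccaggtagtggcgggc
Piwil4 (chr9:14740623-14740922, minus strand): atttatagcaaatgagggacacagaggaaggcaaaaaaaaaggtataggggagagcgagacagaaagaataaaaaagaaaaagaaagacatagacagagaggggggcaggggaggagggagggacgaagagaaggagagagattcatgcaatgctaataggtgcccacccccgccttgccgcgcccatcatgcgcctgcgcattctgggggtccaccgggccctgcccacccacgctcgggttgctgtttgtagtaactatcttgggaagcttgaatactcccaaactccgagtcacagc

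Values below are normalised counts, the fragments counted on a gene's exons divided by the library's DESeq2 size factor, given for replicate 1 and then replicate 2. Differences are log2 fold changes with their standard error (SE) from 1 edgeR quasi-likelihood model of all 18 libraries, and a gene was called where its p, adjusted by Benjamini-Hochberg over the 16582 genes tested, was below 0.05. If no library of a group exceeded 3 counts, a fold was computed against 3 counts per library and is a lower bound. The fitted log2 value of such a gene depends on the prior count. Statements that the libraries of compared groups lay apart describe the printed values. The share of all genes separated in this way was not counted. Each library held between 11286050 and 41257861 counts, of which Rn45s took between 16.2% and 47.6%. All 10 genes passed the filter on low counts, but Piwil4 and Asz1 reached 10 counts in both libraries of only 1 condition and Tdrd9 of 3. That condition was wild-type EpiLCs for Piwil4 and wild-type PGCLCs for Asz1, where each was highest. Their calls against it enter the counts below but were favoured by the filter, so they carry no weight on their own. With no filter, all 80 calls were kept. The reading frames of the Tet genes were excised but their other exon sequence could still be counted, and where the reads fell was not examined. Tet1 was at 737 and 967 in TKO against 6227 and 6036 in wild-type EpiLCs. Without cytokines the genotypes overlapped in Tet1, at 1937 and 1200 in TKO against 2028 and 1754 in wild type at day 2. At day 6 without cytokines Tet1 was at 998 and 737 against 1304 and 595. Tet3 was lower in TKO in all 4 matched settings. Tet2 at day 2 without cytokines was at 355 and 405 in TKO and 287 and 200.4 in wild type. In the other matched settings Tet2 was lower in TKO. It was at 31.7 and 102 against 186 and 125 in EpiLCs. At day 6 without cytokines it was at 274 and 304 against 1428 and 574. In TKO cells with cytokines at day 6 Tet1 was at 504 and 783 and Tet2 at 186 and 293. Wild-type PGCLCs held Tet1 at 12106 and 11504 and Tet2 at 3114 and 4812. These totals therefore do not test the deletion. The labels give replicate numbers but not separate cultures, and the study's legends call the 2 points per condition biological replicates. The p-values measure the spread between these samples, estimated in a model that shares it over all 18 libraries. In wild-type PGCLCs the 8 PGC markers summed to 17228 and 14492, and in the TKO aggregates to between 3715 and 7399. The 5 gonadal somatic markers summed to between 119.6 and 234 in all libraries. The 8 neural markers summed to 32521 and 26851 in wild-type cells without cytokines at day 6 and to between 246 and 2100.1 in TKO libraries.

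The summed level of the 10 genes differed widely between the wild-type conditions and much less between the TKO conditions. It was 2080.4 and 2058 in wild-type EpiLCs, 286 and 226 at day 2 without cytokines, 85.7 and 41.7 at day 6 without cytokines and 2149.9 and 1871 in day 6 PGCLCs. In the 10 TKO libraries it lay between 2374 and 3970.5, above every wild-type library. Tdrd12 and Mael contributed the most counts to this sum in the EpiLCs of both genotypes. Over the conditions, Ddx4 means differed 46.5-fold between the highest and the lowest wild-type condition and 1.39-fold among the TKO conditions. For Piwil2 these ratios were 98.7 and 1.65, for Tdrd5 156.1 and 1.76, and for Tdrd12 156.6 and 3.45. Piwil4, Asz1 and Tdrd9 did not share this pattern. Tdrd9 means differed 6.03-fold among wild-type and 8.79-fold among TKO conditions.

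**Figure D1:**
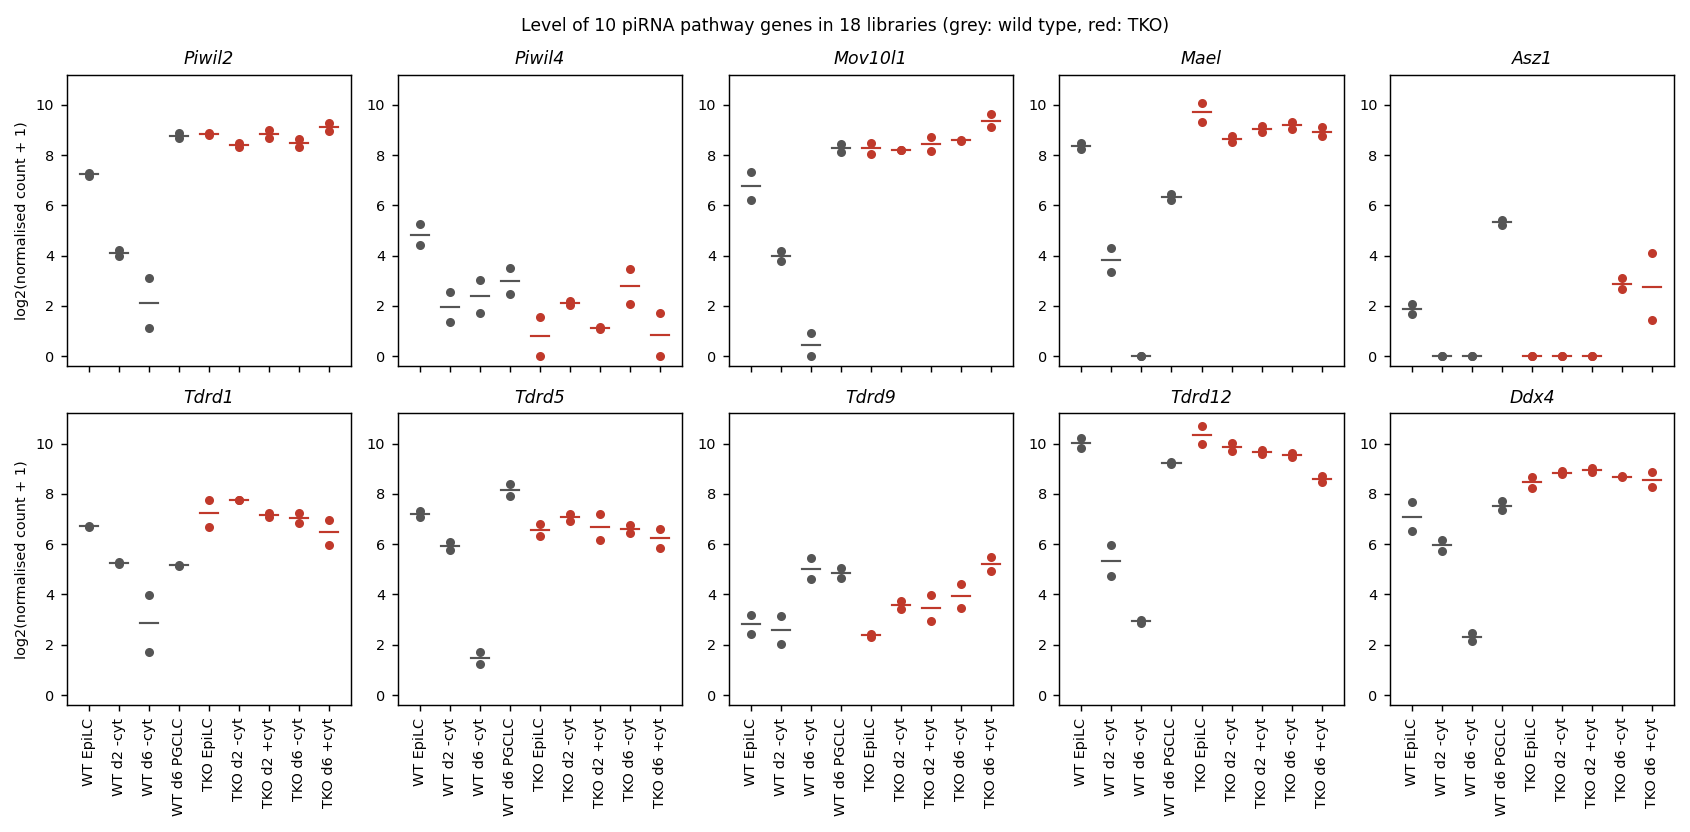
Level of each of the 10 genes in every library, as log2(normalised count + 1) on the vertical axis against the 9 conditions (d2, day 2; d6, day 6; -cyt and +cyt, without and with cytokines), with a dot for each of 2 libraries and a line at their mean, wild type in grey and TKO in red. Piwil2, Mov10l1, Mael, Tdrd12 and Ddx4 dip to their lowest in wild-type cells without cytokines at day 6 and stay high in all TKO libraries, while Piwil4, Asz1 and Tdrd9 do not.

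In wild-type cells left without cytokines, most of the pathway fell within 2 days and nearly all of it by day 6. At day 2, 8 of the 10 genes were called lower than in EpiLCs and none higher, where 15.7% of all genes were called lower and 18.6% higher. The median log2 fold change of the 10 was -3.01 (-2.19 with Asz1 at its bound), and that of all genes 0.02. Fewer cells that express a gene cannot be told apart from less RNA per cell in whole aggregates. Mael, needed for transposon silencing, was at 297 and 357 in EpiLCs and 18.5 and 9.32 at day 2. Tdrd12, a Tudor-domain helicase, was at 1179 and 903 and then 61.4 and 25.6. The groups of both genes lay far apart, and they fell by 4.54 (SE 0.35, adjusted p = 8.64e-07) and 4.55 (SE 0.34, adjusted p = 3.71e-07) on the log2 scale. Piwil2 went from 156 and 143 to 17.5 and 14.8 and fell by 3.15 (adjusted p = 6.04e-06). Mov10l1, the precursor helicase, went from 72.3 and 158 to 12.7 and 17.1 and fell by 2.93 (adjusted p = 6.73e-05). Ddx4, Tdrd5 and Tdrd1 changed less. Ddx4 went from 89.96 and 205 to 71.2 and 52.1, Tdrd5 from 135 and 158 to 53.6 and 66.8, and Tdrd1 from 103 and 105 to 38.0 and 35.7. Their log2 fold changes were -1.26, -1.24 and -1.45, with adjusted p of 0.00904, 0.0158 and 0.0266. Piwil4 went from 36.9 and 20.6 to 4.87 and 1.55 (log2 fold change -3.08, adjusted p = 0.0115), a call against the condition through which it passed the filter. The calls of Ddx4, Tdrd5 and Tdrd1 were lost with scaling by library size alone, and 5 of the 10 genes were called without wild-type EpiLC replicate 2 or without wild-type day 2 replicate 2, against 6 without either of the other libraries. The call of Tdrd1 was lost without any 1 of these 4 libraries (adjusted p from 0.0782 to 0.114), and the same held for Ddx4, Tdrd5 and Piwil4 without 2 of the 4 each.

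At day 6 without cytokines, 9 genes were called lower than in EpiLCs and 1, Tdrd9, higher, against 29.0% of all genes called lower and 31.7% higher. The median log2 fold change of the 10 was -4.93, also with genes at their bounds, and that of all genes 0.05. Mael had no count in either library, which put it at least 135-fold lower than in EpiLCs. Tdrd5 was at 1.36 and 2.32 and Mov10l1 at 0.91 and 0, at least 60.7-fold and 47.7-fold lower. All 3 were thus at or below 3 counts in each library. Tdrd12 was at 6.35 and 6.95, a log2 fold change of -7.28 (SE 0.41, adjusted p = 3.61e-09). Ddx4 was at 4.53 and 3.47 and Piwil2 at 7.71 and 1.158, with log2 fold changes of -5.14 and -4.72. Tdrd1 kept 15.0 and 2.32 (log2 fold change -3.35, adjusted p = 5.32e-05). The neural marker sum was highest in these libraries, as given above, and its part in the result was not tested. Asz1, at 3.21 and 2.22 in EpiLCs and 0 later, was called (adjusted p = 0.041) at a bound of only 1.12-fold, and this call was lost in 7 of 9 other analyses, with an adjusted p of up to 0.198. Piwil4, at 7.25 and 2.32, had a log2 fold change of -2.37 (adjusted p = 0.0152), lost without wild-type EpiLC replicate 1 (adjusted p = 0.0958) and without day 6 replicate 2 (adjusted p = 0.0655). Tdrd9, at 42.6 and 23.2 against 8.03 and 4.45, rose by 2.52 (adjusted p = 0.00237), a call lost without wild-type EpiLC replicate 2 (adjusted p = 0.0536).

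Day 6 wild-type PGCLCs held a different mixture of the pathway from the EpiLCs they came from. Of the 10 genes, 5 were called higher and 3 lower, where 22.4% of all genes were called higher and 18.2% lower, and the median log2 fold change of the 10 was 0.67 against 0.07 for all genes. Piwil2 was at 470.0 and 405 against 156 and 143 in EpiLCs, a rise of 1.60 (SE 0.27, adjusted p = 0.000279). Mov10l1 was at 345 and 279 (log2 fold change 1.43, adjusted p = 0.00306), and Tdrd5 at 334 and 239 (log2 fold change 1.004, adjusted p = 0.0316). For these genes both PGCLC libraries lay above both EpiLC libraries. Asz1, the mitochondrial anchor, was at 36.2 and 41.8, its highest level in the series, a rise of 3.91 (SE 0.87, adjusted p = 0.00524). Both its libraries reached 10 counts in PGCLCs alone, so the filter favoured this call. Tdrd9 was at 24.3 and 32.2, a rise of 2.32 (adjusted p = 0.00771). The 3 lower genes were Mael, Tdrd1 and Tdrd12. Mael was at 73.0 and 86.2, which is 2.00 lower on the log2 scale than in EpiLCs (adjusted p = 0.000112). Tdrd1 was at 35.5 and 34.1 (log2 fold change -1.53, adjusted p = 0.0161), and Tdrd12 at 610.5 and 588 (log2 fold change -0.75, adjusted p = 0.0415). Ddx4 was at 211 and 162, which overlapped its EpiLC values. The calls of Tdrd1 and Tdrd12 were lost with scaling by library size alone. Without wild-type EpiLC replicate 1 or without either PGCLC library 5 genes were called, and without wild-type EpiLC replicate 2 there were 4, 3 of the 8 and Ddx4 (adjusted p = 0.0262). Tdrd1 and Tdrd12 lost their calls without any 1 of the 4 libraries, Tdrd5 without any but PGCLC replicate 2 (adjusted p from 0.0863 to 0.217), Tdrd9 without EpiLC or PGCLC replicate 2 (adjusted p of 0.115 and 0.0508), and Asz1 without EpiLC replicate 2 (adjusted p = 0.0748).

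Against wild-type cells of the same day without cytokines, the PGCLCs were higher in 8 of the 10 genes and lower in none, where 29.6% of all genes were called higher and 28.6% lower. The exceptions were Piwil4 and Tdrd9. The median log2 fold change of the 10 was 6.42, or 5.26 with 4 genes at their bounds, and that of all genes 0.0086. Mov10l1 was at least 129-fold higher, Tdrd5 at least 119-fold, Mael at least 32.9-fold and Asz1 at least 16.1-fold. Piwil2, Tdrd12 and Ddx4 were higher by 6.31, 6.53 and 5.47 on the log2 scale. Tdrd1 was higher by 1.82 (adjusted p = 0.00752), a call lost when only the compared libraries were fitted (adjusted p = 0.128). The PGC markers and the pluripotency markers were also highest among wild-type libraries in these PGCLCs, at pluripotency sums of 41365 and 40550.5 against 3084 and 2809 in day 6 cells without cytokines and PGC sums of 17228 and 14492 against 1407 and 640.4. Their part in the result was not tested.

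**Figure D2:**
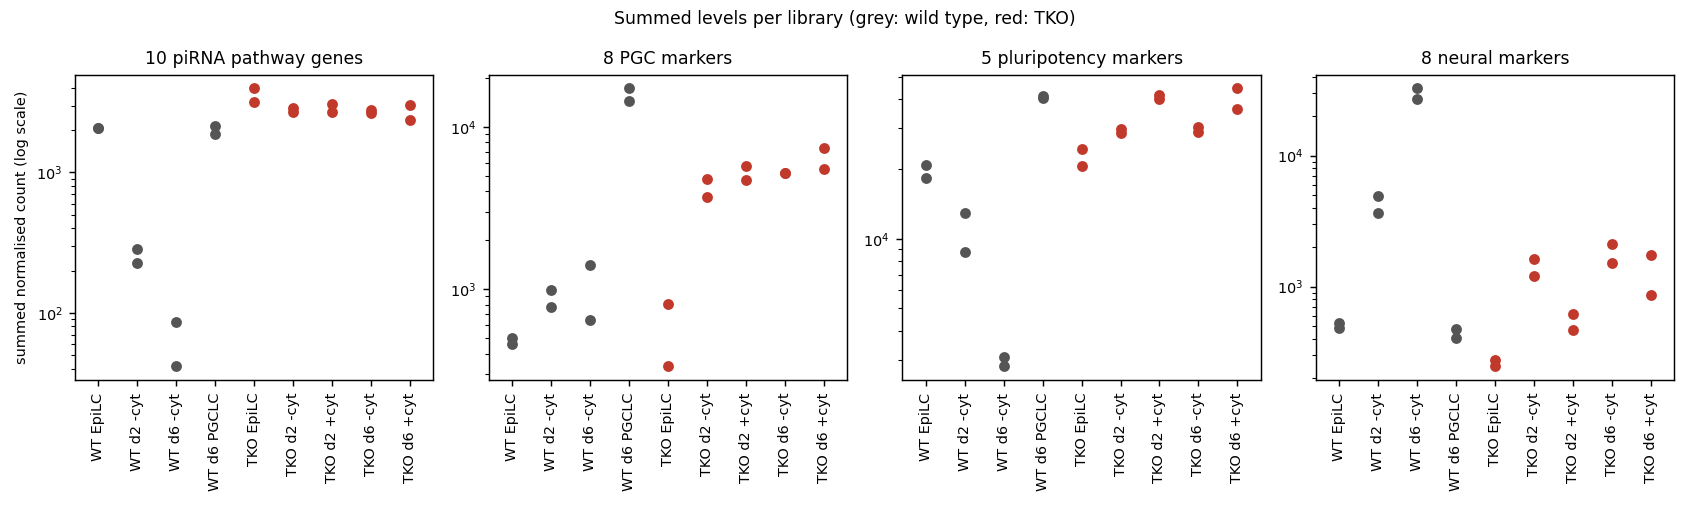
Summed normalised counts per library on a log scale for the 10 piRNA pathway genes and for the PGC, pluripotency and neural marker lists, with a dot for each of 2 libraries in each of 9 conditions, wild type in grey and TKO in red. The 10 genes sum to 85.7 and 41.7 in wild-type cells without cytokines at day 6, where the neural markers are highest, and to 2374 or more in all TKO libraries.

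TKO cells already differed from wild type as EpiLCs. There 4 genes were called higher and 1 lower, where 7.57% of all genes were called higher and 3.18% lower, and the median log2 fold change of the 10 was 0.52 against 0.04 for all genes. Piwil2 was at 446 and 468 in TKO and 156 and 143 in wild type, a difference of 1.65 (SE 0.27, adjusted p = 0.00162). Mael was at 642 and 1085 against 297 and 357, a difference of 1.42 (SE 0.28, adjusted p = 0.00557). In both genes the TKO libraries lay above the wild-type libraries, and the TKO libraries of Mael were themselves well apart. Mov10l1 was at 356 and 264 against 72.3 and 158 (log2 fold change 1.40, adjusted p = 0.0149). Ddx4 was at 407 and 300.2 against 89.96 and 205 (log2 fold change 1.24, adjusted p = 0.0228). The lower gene was Piwil4, the nuclear PIWI protein, at 1.98 and 0 in TKO against 36.9 and 20.6 in wild type, at least 9.17-fold lower (adjusted p = 0.0117). It reached 10 counts in both libraries of wild-type EpiLCs alone, so the filter favoured this call. DESeq2 gave Piwil4 no adjusted p here and called none of the 10 genes lower. Tdrd1, Tdrd12, Tdrd5 and Tdrd9 were not called, with log2 fold changes of 0.64, 0.40, -0.62 and -0.42. Asz1 had 3.21 normalised counts or fewer in all 4 libraries. The count of calls depended on single libraries. Without wild-type EpiLC replicate 1 only Piwil2 was called, without TKO EpiLC replicate 1 the calls of Ddx4 and Mov10l1 were lost (adjusted p of 0.118 and 0.0784), and without TKO EpiLC replicate 2 those of Mael and Piwil4 (adjusted p of 0.0624 and 0.0965), which left 1, 3 and 3 genes. Piwil2 was called in all 11 other analyses at the same threshold, with adjusted p from 9.31e-10 to 0.0326.

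Without cytokines, TKO cells held most of the pathway at levels far above those of wild-type cells. At day 2, 7 genes were called higher in TKO than in wild type and none lower, where 18% of all genes were called higher, and the median log2 fold change of the 10 was 2.69 against 0.0044 for all genes. The share of all genes called lower is not given here, so the absence of lower calls carries no weight. Mael was at 432 and 369 in TKO and 18.5 and 9.32 in wild type, a difference of 4.84 (SE 0.36, adjusted p = 3.93e-07). Tdrd12 was at 1041 and 843 against 61.4 and 25.6 (log2 fold change 4.43), Piwil2 at 321 and 353 against 17.5 and 14.8 (log2 fold change 4.35), and Mov10l1 at 289.6 and 296 against 12.7 and 17.1 (log2 fold change 4.24). The genotypes did not overlap in any of these genes. Ddx4 was at 437 and 484 against 71.2 and 52.1 (log2 fold change 2.88, adjusted p = 1.89e-05). Tdrd1 was at 213 and 216 against 38.0 and 35.7 (log2 fold change 2.51, adjusted p = 0.000982). Tdrd5 differed least of the 7, at 146 and 121 against 53.6 and 66.8 (log2 fold change 1.12, adjusted p = 0.0282), and its call was lost without any 1 of the 4 libraries compared (adjusted p from 0.0615 to 0.16).

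The difference between the genotypes was itself tested over these 2 days, as the change from EpiLCs to day 2 without cytokines in TKO minus that in wild type. It was called for 6 genes, all more positive in TKO, where 6.08% of all genes were called in that direction and the share in the other direction is not given. These were Tdrd12 (4.03, SE 0.42), Mael (3.42, SE 0.44), Mov10l1 (2.83, SE 0.51), Piwil2 (2.7, SE 0.41), Tdrd5 (1.73, SE 0.51) and Ddx4 (1.63, SE 0.46). The adjusted p was at most 0.00221 for the first 4 and 0.0372 and 0.0296 for Tdrd5 and Ddx4. Tdrd1 missed the threshold at 1.87 (SE 0.64, adjusted p = 0.0717) and passed it with DESeq2 (adjusted p = 0.0204) and without TKO EpiLC replicate 1 (adjusted p = 0.0388). The call of Tdrd5 was lost without any 1 of the 8 libraries (adjusted p from 0.0514 to 0.135), and that of Ddx4 without any but replicate 1 of the EpiLCs of either genotype (adjusted p from 0.0509 to 0.254).

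At day 6 without cytokines, 8 genes were called higher in TKO and none lower, against 28.5% of all genes called higher and 26.9% lower. The median log2 fold change of the 10 was 5.91, or 5.66 with 4 genes at their bounds, and that of all genes 0.0052. Mael was at 519 and 641 in TKO and had no count in wild type, at least 240.0-fold higher. Mov10l1 was at 374 and 390.0 against 0.91 and 0, at least 158-fold higher. In both genes the wild-type libraries held no more than 1 normalised count, and the genotypes lay far apart. Tdrd12 was at 782 and 707 against 6.35 and 6.95 (log2 fold change 6.82, SE 0.41, adjusted p = 6.04e-09). Ddx4 was at 410.3 and 413 against 4.53 and 3.47 (log2 fold change 6.60), and Piwil2 at 322 and 394 against 7.71 and 1.158 (log2 fold change 6.00). Tdrd5 was at 107 and 85.8 against 1.36 and 2.32, at least 39.8-fold higher, and Tdrd1 at 113 and 149 against 15.0 and 2.32 (log2 fold change 3.70, adjusted p = 3.10e-05). Asz1 was at 5.38 and 7.57 against 0, at least 2.68-fold higher (adjusted p = 0.00895), a call lost without wild-type day 6 replicate 1 (adjusted p = 0.0637). Tdrd9 went the other way, at 20.5 and 10.1 in TKO and 42.6 and 23.2 in wild type, without a call (adjusted p = 0.108, or 0.0495 without wild-type day 6 replicate 2). Piwil4 was at 3.23 and 10.1 against 7.25 and 2.32, which overlap. The neural marker sum was 1506 and 2100.1 in these TKO libraries and 32521 and 26851 in wild type, and the pluripotency marker sum was 28798 and 30393 in TKO and 3084 and 2809 in wild type. The 6 mesoderm markers summed to 1747 and 2402 in TKO and 219 and 287 in wild type, and the 5 endoderm markers to 463 and 327 and 73.9 and 9.26. The 8 PGC markers summed to 5197 and 5183 and 1407 and 640.4. Their part in the differences was not tested.

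**Figure D3:**
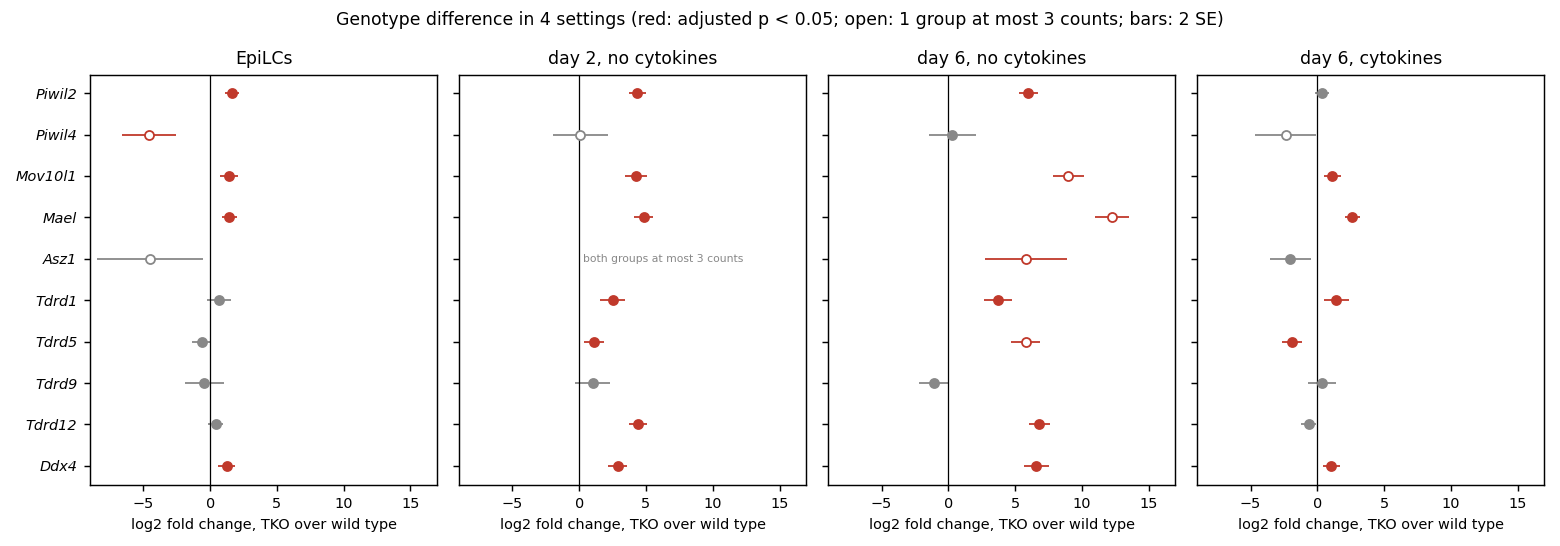
Log2 fold change of each gene in TKO over wild type (horizontal axis) in EpiLCs, at day 2 and day 6 without cytokines, and at day 6 with cytokines, where wild type stands for the day 6 PGCLCs. Bars reach 2 SE either way, red marks an adjusted p below 0.05, and open circles are fitted values of genes with at most 3 counts in every library of 1 group, which depend on the prior count. The differences of Piwil2, Mov10l1, Mael, Tdrd12 and Ddx4 widen from EpiLCs to day 6 without cytokines and are smaller against PGCLCs.

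Against wild-type PGCLCs, genes of the group differed in both directions. In TKO aggregates with cytokines at day 6, 4 genes were called higher and 1 lower, where 11.3% of all genes were called higher and 7.53% lower, and the median log2 fold change of the 10 was 0.35 against 0.05 for all genes. Mael was at 433 and 549 in TKO and 73.0 and 86.2 in PGCLCs, a difference of 2.62 (SE 0.29, adjusted p = 5.68e-05). Tdrd5 was at 57.1 and 95.3 against 334 and 239, a difference of -1.90 (SE 0.37, adjusted p = 0.00237). These 2 calls, in opposite directions, held in all 11 other analyses at the same threshold. Mov10l1 was at 556 and 782 against 345 and 279 (log2 fold change 1.10, adjusted p = 0.0258), Ddx4 at 306 and 464 against 211 and 162 (log2 fold change 1.05, adjusted p = 0.0307), and Tdrd1 at 62.2 and 123 against 35.5 and 34.1 (log2 fold change 1.42, adjusted p = 0.0471). In these 3 genes both TKO libraries lay above both PGCLC libraries. All 3 calls were lost without PGCLC replicate 1 or 2, each leaving 2 genes, and without TKO day 6 replicate 2, which left 3 with Asz1 called lower (adjusted p = 0.0369). Tdrd1 was also not called with the replicate number as a block (adjusted p = 0.053). Piwil2 was at 492 and 619 against 470.0 and 405, a log2 fold change of 0.34 with 2 SE either way from -0.17 to 0.85, and Tdrd12 at 422 and 356 against 610.5 and 588, a log2 fold change of -0.63 with 2 SE from -1.19 to -0.07. Neither was called, but with only the compared libraries fitted Tdrd12 (adjusted p = 0.0224) and Asz1 (adjusted p = 0.0463) were called lower, which made 7 calls in place of 5. All 4 genes called higher here have CACGTG in a promoter window, as does Tdrd9, which was not called, and Tdrd5, called lower, has none, an arrangement seen after the values were known and not tested.

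TKO aggregates with cytokines were also sampled at day 2. Compared with day 6 wild-type PGCLCs, 3 genes were called higher and 2 lower, where 10.4% of all genes were called higher and 9.49% lower. Mael, at 477 and 569.7, was higher by 2.71 (adjusted p = 6.40e-05), Tdrd1, at 136 and 151, by 2.03 (adjusted p = 0.00738), and Ddx4, at 460.1 and 520.1, by 1.39 (adjusted p = 0.00685). Tdrd5, at 147 and 70.8, was lower by 1.40 on the log2 scale (adjusted p = 0.0128). Asz1 had no count in either day 2 library and was at least 10.9-fold lower than in PGCLCs (adjusted p = 0.00362), so no transcript of the mitochondrial anchor was counted there. Piwil2, at 414 and 506, and Mov10l1, at 282 and 417, overlapped their PGCLC values, with log2 fold changes of 0.06 and 0.15. The median of the 10 was 0.11 against 0 for all genes, and 3 genes were called without either PGCLC library. Tdrd1 was not called without either of them (adjusted p of 0.06 and 0.0654), Tdrd5 without replicate 1 (adjusted p = 0.118) or without TKO day 2 replicate 2 (adjusted p = 0.119), and Ddx4 without PGCLC replicate 2 (adjusted p = 0.0854). This comparison shares its PGCLC libraries with the one above.

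Within TKO cells no difference between aggregates with and without cytokines passed the test, a count that is near the share of all genes called. No gene of the 10 was called between day 2 aggregates with and without cytokines, where 4.52% of all genes were called in either direction, with 0 genes also at an unadjusted p below 0.05 and 0 with DESeq2. At day 6 none was called either, against 5.61% of all genes, but 4 genes had an unadjusted p below 0.05, and DESeq2 called Tdrd12 (adjusted p = 0.0255) and Piwil2 (adjusted p = 0.0475). Tdrd12 was at 422 and 356 with and 782 and 707 without cytokines, a log2 fold change of -0.92 (adjusted p = 0.0676), and Mov10l1 at 556 and 782 and 374 and 390.0, a log2 fold change of 0.83 (adjusted p = 0.138). The groups did not overlap in either gene, and 2 SE either way reached from -1.49 to -0.36 for Tdrd12 and from 0.19 to 1.46 for Mov10l1. The cytokine effect at day 6 in TKO minus that in wild type was called for 8 genes, all lower, where 22.0% of all genes were called in that direction and the share in the other direction is not given. For Piwil2, Tdrd12, Ddx4 and Tdrd1, which had counts in all conditions, it was -5.66 (SE 0.44), -7.46 (SE 0.50), -5.55 (SE 0.56) and -2.29 (SE 0.69), with adjusted p of at most 0.0148. Mael, Mov10l1, Tdrd5 and Asz1 were called too, with fitted values that depend on the prior count because a wild-type group was at or under 3 counts. The call of Tdrd1 was lost when only the compared libraries were fitted (adjusted p = 0.0763). It was also lost without TKO day 6 with cytokines replicate 1, where the value was -1.91.

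Over time in TKO cells, few differences passed the test. With 10 genes these counts are too small to be set apart from the shares of all genes. From TKO EpiLCs to day 2 with cytokines no gene of the 10 was called, against 14.3% of all genes. There 2 genes had an unadjusted p below 0.05 and DESeq2 called 0. Both, Tdrd12 (-0.73, adjusted p = 0.0936) and Mael (-0.72, adjusted p = 0.0942), were called without TKO EpiLC replicate 1 (adjusted p of 0.0347 and 0.0272). From TKO EpiLCs to day 2 without cytokines Mael alone was called, lower by 1.12 on the log2 scale (adjusted p = 0.0131), where 8.52% of all genes were called lower. That call was lost without TKO EpiLC replicate 2 and without either day 2 library, each leaving 0 calls (adjusted p of 0.142, 0.0616 and 0.113). From day 2 to day 6 with cytokines Tdrd12 alone was called, lower by 1.05 (adjusted p = 0.0404) against 1.72% of all genes called lower, and the call was lost without any 1 of the 4 libraries, with 0 calls left in 3 of these cases and Asz1 called instead without TKO day 6 replicate 1 (adjusted p = 0.0334). From day 2 to day 6 without cytokines no gene was called, against 0.476% of all genes, with 1 gene at an unadjusted p below 0.05 and 0 with DESeq2. Piwil2 there went from 321 and 353 to 322 and 394 and Ddx4 from 437 and 484 to 410.3 and 413, with log2 fold changes of 0.09 (2 SE from -0.42 to 0.61) and -0.16 (2 SE from -0.77 to 0.46).

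3 genes stood apart from the rest of the group. Piwil4 was highest in wild-type EpiLCs, at 36.9 and 20.6, and between 0 and 10.1 in all TKO libraries. Its other wild-type values were 4.87 and 1.55 at day 2, 7.25 and 2.32 at day 6 without cytokines and 10.4 and 4.50 in PGCLCs. The exons of Piwil4 overlap the antisense gene Gm10706, and those of Tdrd5 the antisense gene 4930518J20Rik. The authors' counting did not use strand, so reads from these partners cannot be told apart from reads of the genes. Asz1 had no count in 10 of the 18 libraries. Its TKO values at day 6 were 5.38 and 7.57 without and 1.68 and 16.1 with cytokines, the latter far apart. In TKO cells with cytokines at day 6 it was lower than in PGCLCs by 2.03 on the log2 scale without a call (adjusted p = 0.0912). Tdrd9 had its lowest mean in TKO EpiLCs, at 3.97 and 4.40, which overlapped 7.80 and 3.11 in wild-type cells at day 2. It was at 8.03 and 4.45 in wild-type EpiLCs. It reached 42.6 and 23.2 in wild-type cells without cytokines at day 6, 24.3 and 32.2 in PGCLCs and 43.7 and 29.8 in TKO cells with cytokines at day 6, and these highest 3 conditions overlapped.

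Levels of different genes can be set side by side only per length, here as normalised counts per kilobase of the union of annotated exons (GENCODE M21). The fragments were counted on refGene genes, a different annotation, so the order of genes on this scale may depend on that choice, which was not tested. On that scale Tdrd12 and Mael led in wild-type EpiLCs, at means of 240.0 and 189, followed by Ddx4 at 49.0, Piwil2 at 28.2 and Mov10l1 at 27.6. In PGCLCs the order was Tdrd12 at 138, Piwil2 at 82.7, Mov10l1 at 74.6, Ddx4 at 61.7, Mael at 45.9 and Tdrd5 at 41.4. In TKO cells with cytokines at day 6 Mael led at 283, ahead of Mov10l1 at 159.9 and Ddx4 at 128, and Tdrd5 was at 10.98. Piwil4, Asz1 and Tdrd9 were at 13.8 or less in every condition on this scale. Piwil4 was at 0.21 and Piwil2 at 105 in these TKO cells. Ranked by condition rather than by gene, the Piwil2 level was highest in TKO cells with cytokines at day 6, and the ranges of its first 4 conditions, which include wild-type PGCLCs, overlapped from 1 to the next. The TKO conditions without cytokines came next and stood apart below wild-type PGCLCs, and wild-type EpiLCs and then the wild-type conditions without cytokines at day 2 and day 6 each stood apart below the condition before.

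Of 20 further genes of the pathway listed from general knowledge, 18 were in the count table and 17 were tested, all but Henmt1. At day 6 without cytokines 11 of the 17 were called higher in TKO than in wild type, and 1, Tdrkh, lower, where 28.5% of all genes were called higher and 26.9% lower, with a median log2 fold change of 2.22. Stk31, a Tudor-domain gene, was at 359.6 and 336 in TKO and 0.45 and 0 in wild type, at least 144-fold higher. Dnmt3l, the cofactor of de novo DNA methylation in germ cells, was at 878 and 879.7 against 1.81 and 0, and Morc1, which acts in transposon silencing, at 609 and 765 against 6.35 and 0. Fkbp6, a chaperone partner of the pathway, was at 11.8 and 25.2 against at 0 in both, at least 7.67-fold higher. The genotypes did not overlap in any of the 4 genes. Against PGCLCs, TKO cells with cytokines at day 6 had 1 gene called higher and 4 lower, against 11.3% and 7.53% of all genes, with a median of -0.15. Fkbp6 was at 11.8 and 54.0 against 311 and 318 (log2 fold change -3.21, SE 0.54, adjusted p = 0.00116). Pnldc1, the nuclease that trims piRNA 3′ ends, was at 68.9 and 122 against 277 and 279.9 (log2 fold change -1.54, adjusted p = 0.00206). Dnmt3l was lower too, at 973 and 425 against 1429.5 and 1824 (adjusted p = 0.0327), Exd1 was the 4th lower gene, and Stk31 was higher, at 578 and 726 against 264 and 259 (adjusted p = 0.0314). Fkbp6 was also lower in TKO EpiLCs, at 5.95 and 9.90 against 86.7 and 87.8. In that comparison 3 of the 17 were called higher and 1, Fkbp6, lower, against 7.57% and 3.18% of all genes. In wild-type cells without cytokines 10 of the 17 fell by day 2 and 2, Tdrd7 and Tdrkh, rose, against 15.7% and 18.6% of all genes. By day 6 12 had fallen and 3 had risen, against 29.0% and 31.7%. In PGCLCs against the day 6 cells without cytokines 12 were higher and 2 lower, against 29.6% and 28.6%. Tdrkh, Tdrd7 and Exd1 are named here after their values were seen.

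**Figure D4:**
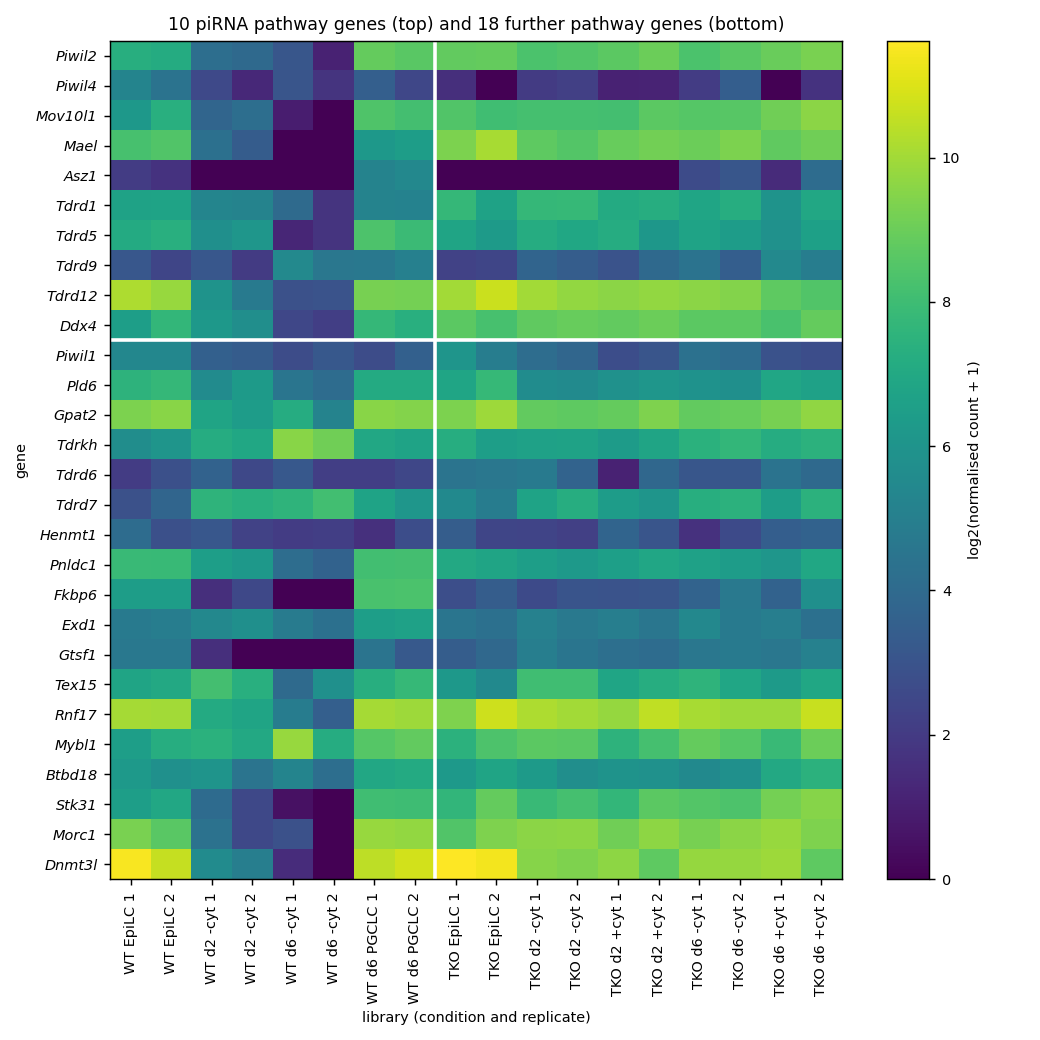
Colour shows log2(normalised count + 1) of the 10 piRNA pathway genes, above the horizontal white line, and the 18 further pathway genes, below it, in each of the 18 libraries, with wild type to the left of the vertical white line and TKO to its right. The wild-type columns at day 6 without cytokines are dark for Mael, Mov10l1, Stk31, Morc1 and Dnmt3l, and Fkbp6 is brightest in wild-type EpiLCs and PGCLCs.

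A list of 17 late germline genes outside the pathway was counted in the same way. In TKO against wild type at day 6 without cytokines 16 of the 17 were called higher, where 28.5% of all genes were. In TKO cells with cytokines at day 6 against PGCLCs 8 were higher and 1 lower, where 11.3% and 7.53% of all genes were. Each member's profile over the 9 condition means was set against the mean of the other members, and the Pearson correlation was 0.95 for Mov10l1, 0.94 for Piwil2 and 0.92 for Tdrd12, between 0.73 and 0.88 for Ddx4, Mael, Tdrd5 and Tdrd1, and 0.44, -0.07 and -0.18 for Asz1, Piwil4 and Tdrd9. The gene whose mean profile over the 9 conditions was most like that of the 10 was Fxr1, an RNA-binding protein gene (Pearson's r = 0.991 over 9 condition means of log2(normalised count + 1), among 11990 genes), followed by Liph, Syce1, Dmrt1 and Capsl (r of 0.985 or more). The correlation does not depend on the size of a change. Fxr1 was at 3634 and 3594 in wild-type EpiLCs and still at 1777 and 1724 in wild-type cells without cytokines at day 6. Syce1, of the synaptonemal complex, was at 127 and 158 in wild-type EpiLCs and at 0 in both wild-type libraries without cytokines at day 6. Only 1 of these 5 genes stayed among the highest 5 with TMM-scaled CPM, and between 0 and 5 when 1 library was left out, 0 without TKO EpiLC replicate 2, so their order is not stable. The 9 points are means of 2 libraries each, and these correlations are given without a test.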

How the data were processed

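RNA was depleted of ribosomal RNA and made into stranded, paired-end libraries. The authors trimmed the reads (Trim Galore 0.5.0, cutadapt 1.16), aligned them to mm10 with STAR 2.7.1a and counted fragments per refGene gene with featureCounts (Subread 1.5.2), as the study's methods and the submitters' processing notes give it. Fragments that mapped to several places or genes were not counted, and strand was not used. The deposited values are raw counts per gene for 18 libraries in 9 conditions of 2 replicates. A total of 33 rows that hold only counter command lines were left out, and 0 columns belonged to other samples. Library totals ran from 11286050 to 41257861 (median 16305168), and counting error limits every gene with few counts. Samples were grouped by their labels.

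Genes were filtered with filterByExpr (minimum count 10), which left 16582 of 25239, scaled by TMM and fitted in 1 edgeR 4.0.16 quasi-likelihood model of 9 condition means (R 4.3.3, limma 3.58.1), with Benjamini-Hochberg adjustment over all genes tested and a threshold of 0.05. The SE was approximated from the log2 fold change and the F statistic (its size over the root of F), and intervals are 2 SE either way. Levels are counts divided by DESeq2 1.42.0 size factors, with a pseudocount of 1 where a log is taken. The scripts were checked on simulated data. Alternatives were no filter, a mean CPM of 1, RLE factors, no scaling but library size, a block for the replicate number, a fit of the compared libraries alone, DESeq2's Wald test, a required log2 fold change of over 2, a stricter threshold of 0.01 and leaving out each library in turn. The 10 members, the further pathway genes, the late germline genes and the marker lists were chosen with earlier results of these data known. Named beside the members are the 4 further pathway genes with the largest called change and a mean of 50 or more normalised counts in TKO against wild type at day 6 without cytokines and in TKO cells with cytokines against PGCLCs, and the 5 genes most like the members in profile. Exon overlaps came from GENCODE M21 and promoter windows from RefSeq (GRCm38.p6). The count table holds no ESCs and no wild-type day 2 aggregates that received cytokines. TKO aggregates with cytokines at day 2 therefore have no wild-type counterpart of the same day here.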

Additional observations from a re-analysis of the deposited data

Results flagged for a closer look

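The change from EpiLCs to day 2 without cytokines differed between the genotypes for 6 of the 10 genes by a test of the difference itself (edgeR's quasi-likelihood test, adjusted over all genes tested), with values of 4.03 for Tdrd12, 3.42 for Mael, 2.83 for Mov10l1, 2.7 for Piwil2, 1.73 for Tdrd5 and 1.63 for Ddx4 on the log2 scale, each more positive in TKO. The last 2 were not called in 9 and 7 of 15 other analyses, respectively.

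The effect of the cytokines at day 6 differed between the genotypes for 8 genes and was lower in TKO for each. Values were -7.46 for Tdrd12, -5.66 for Piwil2, -5.55 for Ddx4 and -2.29 for Tdrd1. Those of Mael (-9.66), Mov10l1 (-7.89), Asz1 (-7.84) and Tdrd5 (-7.69) depend on the prior count, since both wild-type libraries without cytokines had 3 counts or fewer. In this contrast the wild-type cells with cytokines may have been sorted and the TKO cells not, so genotype and sorting cannot be told apart.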

How the results depend on the processing

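Each count below is the number of the 10 genes called, and the cause of a change was not tested unless fewer samples or a stricter threshold made it. Over the single genes called, none of 1082 alternative values changed direction, 938 kept their side of the threshold and 144 did not pass it. The required log2 fold change and the threshold of 0.01 reused the main fit, so their 80 values each could not change direction. Only values with an adjusted p entered these counts, so calls of genes that a filter removed are missing rather than counted as lost. Of the 80 calls, 69 had a value with a mean CPM of 1, 78 with only the compared libraries and 79 with DESeq2. Scaling by library size alone moved the median log2 fold change of all genes by -0.52 to 0.68, and other settings by no more than 0.062.

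With a log2 fold change beyond 2 required, the count was 1 in place of 5 for TKO against wild-type EpiLCs, 5 in place of 8 for wild-type day 2 against EpiLCs, 3 in place of 8 for PGCLCs against EpiLCs, 1 in place of 5 for TKO cells with cytokines at day 6 against PGCLCs and 3 in place of 5 at day 2, and 0 in place of 1 for TKO day 2 without cytokines against EpiLCs and for TKO day 6 against day 2 with cytokines. At an adjusted p below 0.01 these counts were 2, 5, 5 and 2 for the first 4, and 0 for the last 2. With library size alone they were 5 for wild-type day 2, 3 for TKO day 6 against PGCLCs, 0 for TKO day 2 without cytokines against EpiLCs, and 1 in place of 0 for TKO day 6 with against without cytokines. Without a filter 1 gene was called between TKO day 2 with cytokines and EpiLCs, 3 between TKO day 6 and day 2 with cytokines, and 1 between TKO day 6 with and without cytokines. Fitting only the compared libraries gave 3 for the EpiLCs, 2 for TKO day 6 against day 2 with cytokines, 2 without cytokines, and 2 for TKO day 6 with against without cytokines, where DESeq2 also gave 2. With TMM-scaled CPM 1 of the 5 genes most like the members stayed.

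Leaving out 1 library leaves its condition with 1, assumed to vary like the others. The counts then ran from 1 to 5 for the EpiLCs, 5 to 6 for wild-type day 2, 8 to 9 for wild-type day 6 without cytokines, 4 to 5 for PGCLCs against EpiLCs, and 8 to 8 for PGCLCs against cells without cytokines. They ran from 6 to 6 for TKO against wild type at day 2, 7 to 9 at day 6 without cytokines, 2 to 5 for TKO day 6 and 3 to 5 for TKO day 2 with cytokines against PGCLCs. Within TKO they ran from 0 to 2 for day 2 with cytokines against EpiLCs, 0 to 1 without cytokines, 0 to 1 for day 6 against day 2 with cytokines, and 0 to 0 for the other 3 comparisons. The difference between genotypes over time was called for 4 to 6 genes and that in the cytokine effect for 7 to 8, and 0 to 5 of the 5 most alike genes stayed.

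The replicate numbers did not pair the samples: over 36 pairs of conditions the correlation of same-numbered deviations ran from -0.156 to 0.182 (median 0.012), and 7 exceeded 0.1. With the replicate number as a block, 78 of 80 calls were kept, those lost being Asz1 in wild-type cells without cytokines at day 6 against EpiLCs (adjusted p = 0.055) and Tdrd1 in TKO cells with cytokines at day 6 against PGCLCs (adjusted p = 0.0532). With DESeq2 78 of the 79 calls that had an adjusted p were kept. The remaining call, Piwil4 in TKO against wild-type EpiLCs, had no adjusted p with DESeq2 and so was not called.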
